A study of Rattus norvegicus with 12 samples.

Results

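The endoplasmic reticulum (ER) chaperone and folding genes described here were Hspa5, Hsp90b1, Pdia3, Pdia4, Pdia6, Calr, Canx, Dnajb9, Xbp1 and Ero1a, chosen by name for their known roles. They were 10 of the 30562 gene rows in the count table, each symbol had 1 row, and all 10 passed the filter that left 8938 genes for testing. RNA-seq libraries came from cultured oligodendrocyte precursor cells (OPCs), the cells that give rise to myelin-forming oligodendrocytes, isolated from the cortex of neonatal wild-type Sprague-Dawley rats and grown with FGF-2 and PDGF-AA. The mild-hypo-OPC group (6 libraries) was kept at 5% FiO2, which the labels time at 6 hours whereas the study's methods count the exposure in days, and the standard OPC group (6 libraries) was kept in room air. The sources used here do not say that each library came from a separate culture, and the study's legend for this experiment counts fewer biological replicates per group than there are libraries. Some libraries may therefore be repeats of 1 culture, every n below counts libraries, and SDs, SEs and p-values measure the spread between libraries, which may be technical and make p-values too small. The total count of a mild-hypo-OPC library was 4111669 to 9022324 (median 4915674.5) and that of a standard OPC library 1356079 to 2797513 (median 1952621.0), so every mild-hypo-OPC library was the deeper one and depth and oxygen cannot be told apart.

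Secreted and membrane proteins fold in the ER. Hspa5 (BiP) and Hsp90b1 (GRP94) bind unfolded chains, protein disulfide isomerases form disulfide bonds with oxidising power from Ero1a, and calnexin (Canx) and calreticulin (Calr) hold glycoproteins until they are folded. When unfolded protein builds up, the sensors IRE1, PERK and ATF6 raise many of these genes through factors such as XBP1 and ATF4, a programme called the unfolded protein response (UPR), and oligodendrocytes meet a heavy folding load when they make myelin membrane.

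Because the ER stress response element (ERSE) links several of these genes to ATF6 and XBP1 in general knowledge, the promoters were searched for it. The search used RefSeq windows of 300 bases, from 250 before to 50 after each start, on the GRCr8 assembly, matched by symbol. The count files were made on mRatBN7.2 and carry no coordinates. The ERSE letters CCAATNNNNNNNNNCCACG, read on both strands, occurred in 22 of 33469 windows (0.0657%), which belonged to 21 of 27457 genes. They were present in 5 of the 7 members that had a window, namely Hspa5, Hsp90b1, Calr, Canx and Xbp1, and were not in the windows of Pdia4 and Dnajb9. No window was used here for Pdia3, Pdia6 and Ero1a. The 6 matches share the spacing of the CCAAT and CCACG ends because the search letters fixed it. That spacing is therefore not a finding about these promoters. The matched letters are in capitals, each sequence runs 5′ to 3′ along the gene's strand with up to 20 bases on either side, and a match that begins with CGTGG lies on the opposite strand.
Hspa5, chr3:38452953-38453011, plus strand: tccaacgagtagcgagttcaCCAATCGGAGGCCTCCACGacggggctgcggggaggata
Hsp90b1 upstream match, chr7:23012431-23012489, minus strand: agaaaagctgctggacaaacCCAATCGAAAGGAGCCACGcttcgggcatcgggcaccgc
Hsp90b1 downstream match, chr7:23012327-23012385, minus strand: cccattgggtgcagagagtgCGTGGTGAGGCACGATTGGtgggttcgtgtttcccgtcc
Canx, chr10:35158049-35158107, minus strand: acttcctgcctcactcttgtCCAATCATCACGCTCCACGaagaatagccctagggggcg
Xbp1, chr14:84604538-84604596, plus strand: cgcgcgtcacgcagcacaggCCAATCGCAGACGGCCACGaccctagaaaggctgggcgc
Calr, chr19:40213117-40213173, plus strand: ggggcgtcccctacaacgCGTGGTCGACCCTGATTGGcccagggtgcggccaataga

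Across the members, 3 genes rose in mild-hypo-OPCs (Pdia4, Hsp90b1 and Ero1a), 1 fell (Dnajb9) and 6 did not pass the test, by edgeR's quasi-likelihood test at a Benjamini-Hochberg adjusted p under 0.05. Over all 8938 genes tested the same test called 7.00% higher and 17.0% lower. The members' median log2 fold change was 0.15 and 8 of the 10 lay above 0, beside a median of -0.0031 and 49.6% above 0 over all genes tested. The members' summed level was 2647 to 2765 CPM (TMM-scaled counts relative to the library total) in mild-hypo-OPCs with a median of 2681 CPM, and 2278 to 2590 CPM in standard OPCs with a median of 2477 CPM. Every mild-hypo-OPC sum lay above every standard OPC sum, and no share over all genes was computed for such a sum. Its largest parts were Calr and Canx, with medians of 793.2 and 646.5 CPM in mild-hypo-OPCs, and neither was called. Taken singly, only Pdia4 had groups that did not overlap. In bulk libraries, fewer cells of a type and less RNA per cell cannot be told apart.

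**Figure D1:**
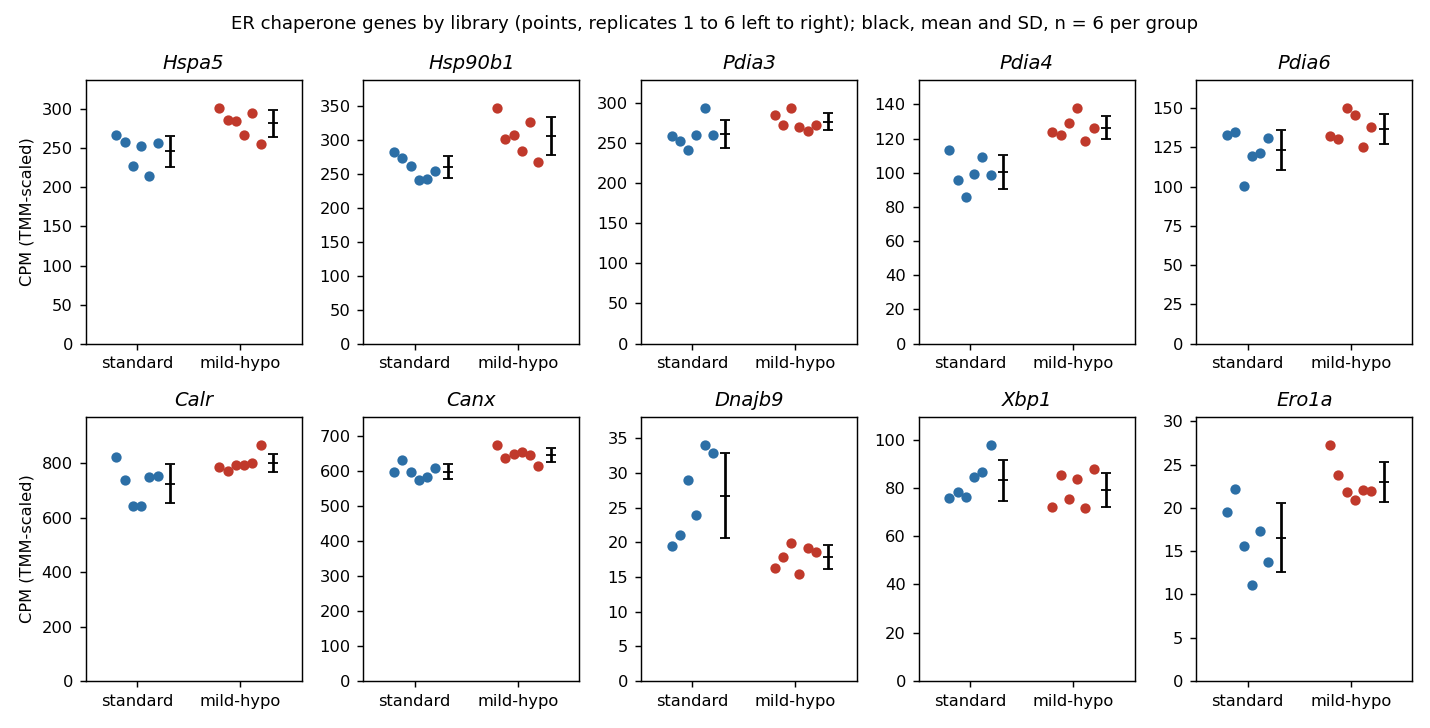
CPM (TMM-scaled, linear axis from 0) of each ER chaperone gene in every library, blue for standard OPCs and red for mild-hypo-OPCs, with the mean and SD in black (n = 6 per group). The groups are separate for Pdia4 only, and Dnajb9 is the gene with most mild-hypo-OPC points below the standard OPC points.

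The BiP and GRP94 chaperones come first. Hspa5 (ENSRNOG00000018294), the ER member of the HSP70 family that also restrains the UPR sensors, was 255.9 to 301.8 CPM in mild-hypo-OPCs (median 286.0) and 215.3 to 266.9 CPM in standard OPCs (median 254.8). Of the 6 mild-hypo-OPC libraries, 5 exceeded the highest standard OPC library. The means were 282.1 ± 17.4 and 246.2 ± 20.01 CPM (SD, n = 6 each) and the log2 fold change was 0.20 (SE 0.076, 95% interval 0.04 to 0.36), which missed the threshold by edgeR's quasi-likelihood test (adjusted p = 0.0673). Hspa5 was called higher by limma-voom (adjusted p = 0.0479, where 6.37% of all genes were called higher) and by DESeq2 (adjusted p = 0.0105, where 8.89% were). It was also called by edgeR without mild-hypo-OPC replicate 4 (adjusted p = 0.04996), without mild-hypo-OPC replicate 6 (0.0282) and without standard OPC replicate 1 (0.0400).

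Hsp90b1 (ENSRNOG00000026963), the ER paralog of HSP90, was 267.9 to 347.5 CPM in mild-hypo-OPCs (median 305.0) and 242.0 to 282.6 CPM in standard OPCs (median 258.7). The groups overlapped through 1 mild-hypo-OPC library. Hsp90b1 was 1.18-fold higher in mild-hypo-OPCs, a log2 fold change of 0.23 (SE 0.079, 95% interval 0.07 to 0.40, adjusted p = 0.0368 by edgeR's quasi-likelihood test). The call was lost without mild-hypo-OPC replicate 1 or 5 (adjusted p = 0.0598 and 0.0538) and without standard OPC replicate 3, 4, 5 or 6 (0.0565, 0.0740, 0.0704 and 0.0659), all by edgeR. Its promoter window held both of the ERSE matches shown for it.

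Among the disulfide isomerases and their oxidase, Pdia4 and Ero1a rose and Pdia3 and Pdia6 did not pass the test. Pdia4 (ENSRNOG00000006228, ERp72), an isomerase with an extra thioredoxin-type domain, was 118.5 to 137.9 CPM in mild-hypo-OPCs (median 125.1) and 85.6 to 113.2 CPM in standard OPCs (median 98.9). It was the 1 member whose groups did not overlap, a separation seen in the higher direction in 2.94% of all genes tested. The means were 126.3 ± 6.77 and 100.3 ± 9.88 CPM (SD, n = 6 each), a 1.26-fold difference with a log2 fold change of 0.33 (SE 0.080, 95% interval 0.16 to 0.50, adjusted p = 0.00558 by edgeR's quasi-likelihood test). Pdia4 remained called whichever of the 12 libraries was left out (adjusted p = 0.00202 to 0.0162, edgeR).

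Ero1a (ENSRNOG00000006462), the oxidase that recharges the isomerases and is known as a hypoxia-responsive gene, was 20.9 to 27.2 CPM in mild-hypo-OPCs (median 22) and 11.04 to 22.2 CPM in standard OPCs (median 16.4). Each mild-hypo-OPC library exceeded the standard OPC median, and 2 of them exceeded the highest standard OPC library. Ero1a was 1.35-fold higher, a log2 fold change of 0.43 (SE 0.14, 95% interval 0.14 to 0.72, adjusted p = 0.0283 by edgeR's quasi-likelihood test). It rested on counts of 12 to 51 per standard OPC library and 102 to 261 per mild-hypo-OPC library. The call was lost without mild-hypo-OPC replicate 1 (adjusted p = 0.0523) and without standard OPC replicate 3, 4 or 6 (0.0641, 0.0635 and 0.0652), all by edgeR. It was also lost with counts thinned to the smallest total, where the log2 fold change was 0.36 (adjusted p = 0.194, edgeR). With that thinning the other calls among the members held, for Pdia4 (0.39, adjusted p = 0.00875), Hsp90b1 (0.28, 0.0361) and Dnajb9 (-0.57, 0.0248), and Hspa5 was called higher (0.30, 0.0255), by edgeR.

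Pdia3 (ENSRNOG00000015018, ERp57), the isomerase that works with calnexin and calreticulin, was 264.5 to 292.8 CPM in mild-hypo-OPCs (median 271.8) and 241.4 to 293.2 CPM in standard OPCs (median 259.0). Its highest library was a standard OPC library. The log2 fold change was 0.08 (95% interval -0.06 to 0.23, adjusted p = 0.422 by edgeR's quasi-likelihood test). Pdia6 (ENSRNOG00000050197), an isomerase that associates with BiP, was 125.1 to 150.1 CPM (median 135.0) in mild-hypo-OPCs and 100.1 to 134.7 CPM (median 126.3) in standard OPCs. For Pdia6, 3 mild-hypo-OPC libraries lay above every standard OPC library and 1 lay below the standard OPC median. Its log2 fold change was 0.15 (95% interval -0.03 to 0.32, adjusted p = 0.209, edgeR).

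Neither lectin chaperone passed the test. Calr (ENSRNOG00000003029), the soluble lectin and ER calcium store, was 770.9 to 866.1 CPM in mild-hypo-OPCs (median 793.2) and 642.4 to 824.7 CPM in standard OPCs (median 742.8). Only 1 mild-hypo-OPC library exceeded every standard OPC library, and the spread was wider in standard OPCs (SD 70.8 CPM) than in mild-hypo-OPCs (SD 33.2 CPM). The log2 fold change was 0.14 (95% interval -0.02 to 0.31, adjusted p = 0.194 by edgeR's quasi-likelihood test). Canx (ENSRNOG00000003343), the membrane-bound lectin, was 614.9 to 672.9 CPM (median 646.5) in mild-hypo-OPCs and 575.2 to 631.6 CPM (median 596.6) in standard OPCs. For Canx, 5 of the 6 mild-hypo-OPC values were higher than any standard OPC value. Its log2 fold change was 0.11 (95% interval -0.03 to 0.25, adjusted p = 0.247, edgeR), and DESeq2 called it higher (adjusted p = 0.0125).

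Dnajb9 and Xbp1 are both linked to the IRE1 branch of the UPR. Dnajb9 (ENSRNOG00000004006, ERdj4), a BiP co-chaperone that keeps IRE1 inactive, was 15.4 to 19.9 CPM in mild-hypo-OPCs (median 18.3) and 19.5 to 34.0 CPM in standard OPCs (median 26.4). In 5 of 6 mild-hypo-OPC libraries it was below every standard OPC library. Dnajb9 fell to 0.683 of the standard OPC level, a log2 fold change of -0.55 (SE 0.14, 95% interval -0.84 to -0.26, adjusted p = 0.00741 by edgeR's quasi-likelihood test). It rested on counts of 26 to 52 per standard OPC library and 75 to 156 per mild-hypo-OPC library. The call held whichever of the 12 libraries was left out (adjusted p = 0.00155 to 0.0261, edgeR). The log2 fold change was -0.33 in the libraries numbered 1 to 3, where it was not called (adjusted p = 0.328, edgeR), and -0.77 in those numbered 4 to 6, where it was (0.00470). Scaled by total counts alone, the Dnajb9 log2 fold change was -0.12 (adjusted p = 0.480, edgeR).

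Xbp1 (ENSRNOG00000010298), the transcription factor whose mRNA IRE1 splices, was 71.7 to 87.8 CPM in mild-hypo-OPCs (median 79.4) and 75.7 to 97.7 CPM in standard OPCs (median 81.4). The mild-hypo-OPC libraries fell equally above and below the standard OPC median, 3 on each side. The log2 fold change was -0.06 (95% interval -0.24 to 0.12, adjusted p = 0.650 by edgeR's quasi-likelihood test), and its sign changed with the scaling. Gene-level counts do not separate spliced from unspliced Xbp1.

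**Figure D2:**
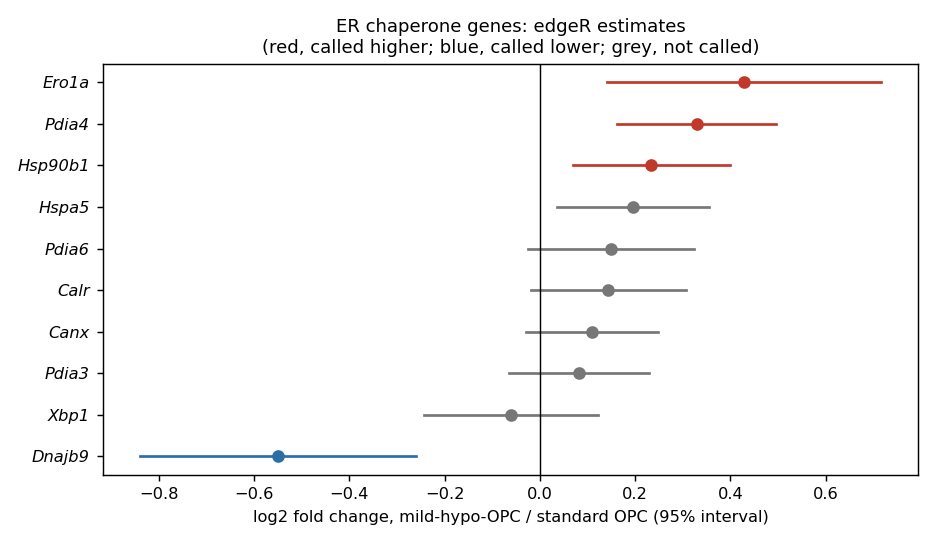
Log2 fold change of each member, mild-hypo-OPC over standard OPC, from edgeR (points) with 95% intervals (lines), red for called higher, blue for called lower and grey for not called. Ero1a (0.43), Pdia4 (0.33) and Hsp90b1 (0.23) lie to the right of 0 and Dnajb9 (-0.55) to the left.

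The size of these differences depended on how libraries were scaled. With scaling by total counts alone, the log2 fold changes of the genes tested had a median of 0.43, and 9 members were then called higher and none lower, beside 5515 genes higher and 405 lower overall by edgeR. Relative to that shift, Xbp1 (0.38) and Dnajb9 (-0.12) were the members below the median of all genes. With the log2 total count added to the model, no member was called by edgeR. Pdia4 was then 0.36 (adjusted p = 0.6247), Dnajb9 -0.18 (0.942), Hsp90b1 -0.12 (0.932) and Ero1a -0.13 (0.966), and 0 of all genes were called higher (217 at an unadjusted p under 0.05). Upper-quartile scaling called 1136 genes higher and 1255 lower, and 4 members higher and 1 lower.

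A ratio of counts within each library needs no scaling. The log2 ratio of Dnajb9 to Hspa5 counts was -4.21 to -3.78 in mild-hypo-OPCs (mean -3.98 ± 0.16, SD, n = 6) and -3.77 to -2.66 in standard OPCs (mean -3.23 ± 0.43, SD, n = 6). The groups did not overlap, with a difference of -0.75 on the log2 scale. Over all genes tested, 8.23% had a ratio to Hspa5 that was lower in mild-hypo-OPCs without overlap. For the other 8 members the ratio to Hspa5 overlapped between groups, with differences from -0.27 for Xbp1 to 0.30 for Ero1a on the log2 scale. Such a ratio shows unequal change between a pair of genes and not which of them moved.

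Fold changes across the genome varied with the genomic span of the gene. Of the genes tested, 8544 (95.59%) had a RefSeq span. The shortest of 3 equal classes (257 to 14617 bases) had a median log2 fold change of -0.17, with 145 genes called higher and 898 lower by edgeR, and held Hspa5, Hsp90b1, Calr, Dnajb9 and Xbp1. The middle class (14618 to 44269 bases) had a median of 0.03, with 214 higher and 329 lower, and held Pdia3, Pdia4, Pdia6, Canx and Ero1a. The longest class had a median of 0.06, with 251 higher and 164 lower, and held no member.

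When each library's trend on span was removed, an alternative chosen after seeing the data, 5 members were called higher, where 9.59% of all genes were. Hspa5 then had a log2 fold change of 0.43 (adjusted p = 0.00348, edgeR) and Calr one of 0.36 (adjusted p = 0.00417, edgeR). Pdia4, Hsp90b1 and Ero1a remained called higher and Dnajb9 remained called lower, at -0.43. The part of gene span in the reported values was otherwise not tested.

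**Figure D3:**
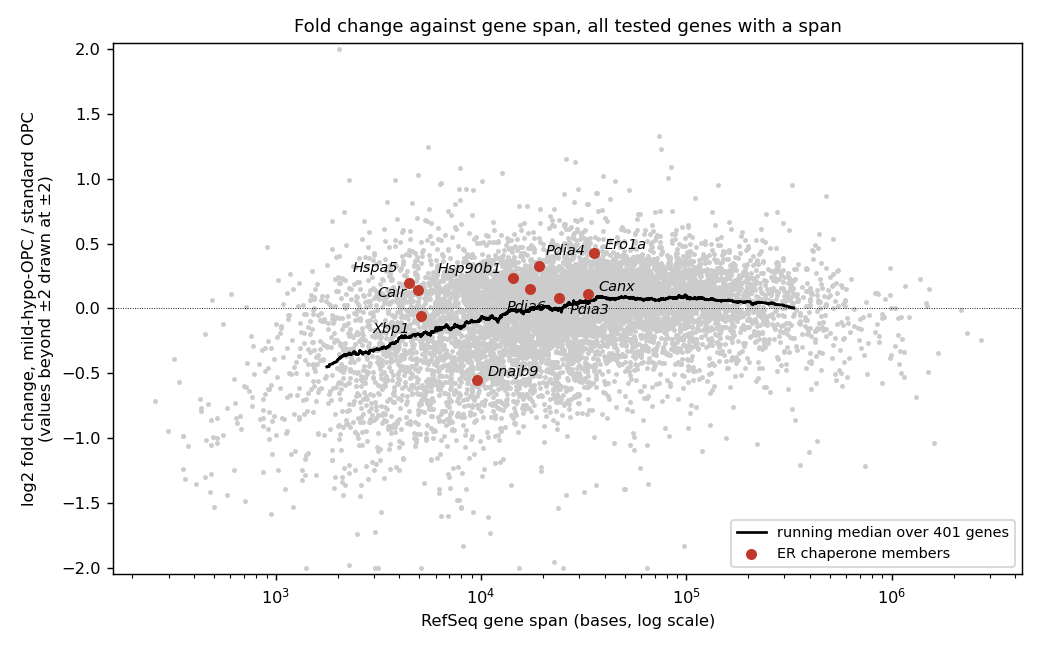
Log2 fold change (mild-hypo-OPC over standard OPC) against RefSeq gene span in bases (log axis) for the tested genes with a span (grey), the 10 members (red) and the running median (black line). The running median is below 0 for short genes, where Hspa5 and Calr lie above it and Dnajb9 below.

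**Figure D4:**
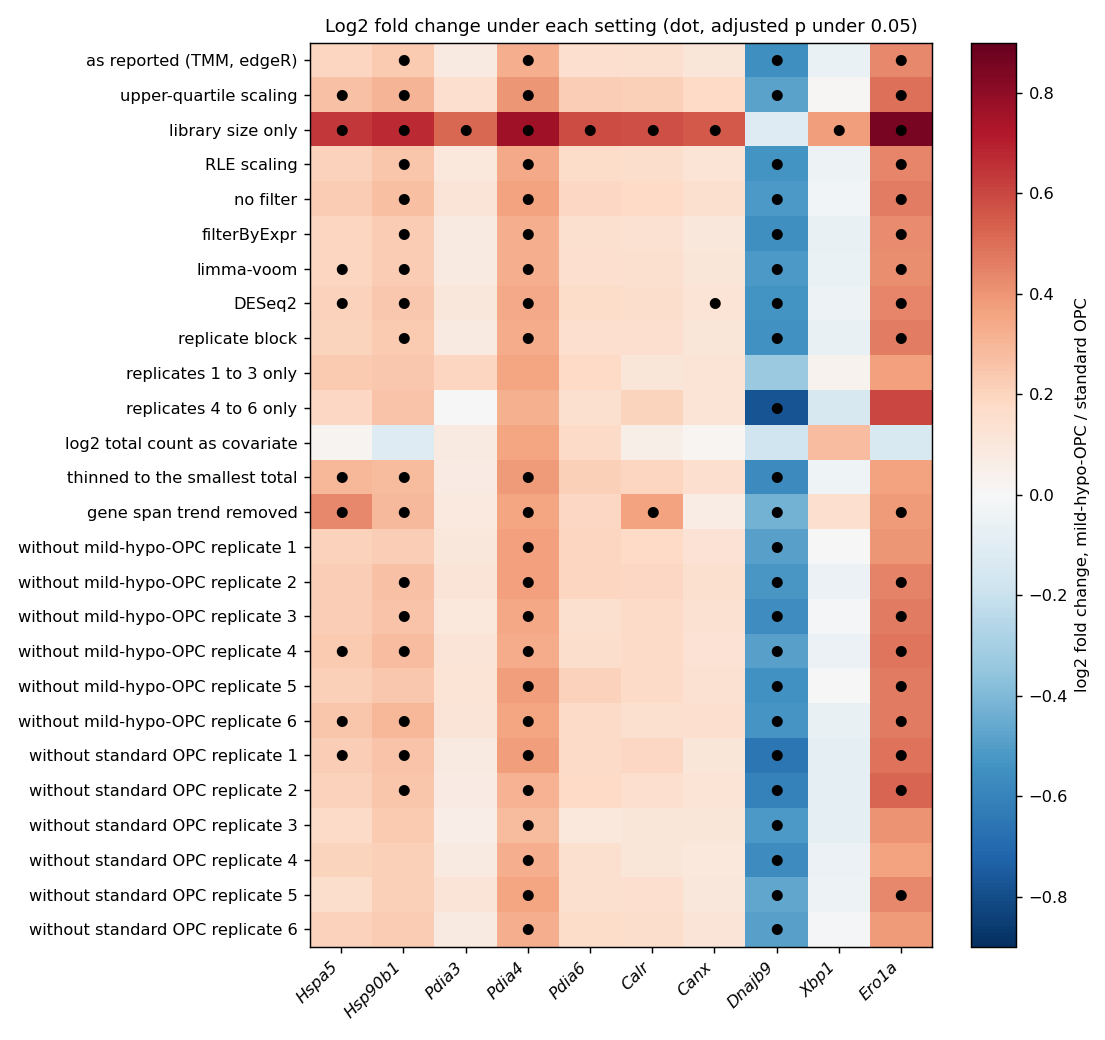
Log2 fold change of each member (columns) under each setting (rows), coloured from blue (lower in mild-hypo-OPCs) to red (higher), with a dot where the adjusted p was under 0.05. Pdia4 and Dnajb9 carry a dot in 22 of the 25 alternatives, Ero1a in 17, Hsp90b1 in 16 and Hspa5 in 9.

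The wider folding machinery was read from 8 lists of 169 genes, of which 127 were tested. By edgeR's quasi-likelihood test 12 of them rose and 21 fell, with a median log2 fold change of 0.02, beside -0.0031 over all genes tested. Over all genes tested 7.00% were called higher and 17.0% lower, and the counts below, list by list, are to be read against these shares. The 12 that rose had a median span of 43060 bases and the 21 that fell one of 10480 bases, the direction of the span trend given above.

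Among BiP co-chaperones and exchange factors, 1 of 12 tested genes rose and 2 fell (median log2 fold change 0.10). The riser was Dnajc10 (ERdj5, a disulfide reductase, 0.36, adjusted p = 0.0232 by edgeR), a call lost without standard OPC replicate 6 (0.0593). Sdf2 (-0.71, adjusted p = 0.000525) and Sdf2l1 (-0.57, 0.00357), partners in a BiP-ERdj3 complex, fell by the same edgeR test, and Sdf2l1 was no longer called once the span trend was removed (-0.21, adjusted p = 0.0894). Hyou1, the large HSP70 relative that exchanges BiP's nucleotide, did not pass it (0.25, adjusted p = 0.0750), nor did Manf (-0.26), Creld2 (-0.29) or Dnajc3 (-0.21), all known UPR targets.

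Oxidative folding enzymes included 2 risers and 6 genes that fell among 19 tested (median log2 fold change -0.15). Txndc11 (0.61, adjusted p = 0.0118, edgeR) and Tmx4 (0.31, 0.0235), both thioredoxin-type membrane proteins, rose. Selenof (-0.81, adjusted p = 0.000323, edgeR), Txndc12 (-0.72, 0.000533), Gpx8 (-0.72, 0.00599) and Prdx4 (-0.60, 0.0219), which are ER redox proteins, fell, as did Erp29 (-0.45) and Txndc15 (-0.38). P4hb, the founding disulfide isomerase, had a log2 fold change of 0.09 and was not called. The calls of Tmx4, Prdx4 and Erp29 were lost in 3, 4 and 7 of the 12 leave-one-out fits, with the highest adjusted p (edgeR) at 0.0555 without standard OPC replicate 1, 0.0672 without standard OPC replicate 6 and 0.0723 without standard OPC replicate 5. Counts thinned to the smallest total also ended the calls of Tmx4 (0.36, adjusted p = 0.0641, edgeR), Prdx4 (-0.37, 0.223) and Erp29 (-0.34, 0.0877). With the span trend removed, Tmx4 (0.24, adjusted p = 0.0652, edgeR) and Erp29 (-0.27, 0.0652) were not called.

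In the lectin cycle, 2 of 12 tested genes rose and 2 fell (median log2 fold change 0.11). Man1a1, a mannosidase (0.56, adjusted p = 0.00300, edgeR), and Ganab, the catalytic subunit of glucosidase II (0.35, 0.00691), rose. The cargo receptor proteins Mcfd2 (-0.40, adjusted p = 0.0197, edgeR) and Lman2 (-0.31, 0.0423) fell, and these calls were lost in 2 and 10 of the 12 leave-one-out fits, at most to 0.0634 without mild-hypo-OPC replicate 5 and 0.146 without mild-hypo-OPC replicate 1. The Lman2 call also ended with upper-quartile scaling (adjusted p = 0.104, edgeR), RLE scaling (0.0573), no filter (0.0902) and DESeq2 (0.0550), and the Mcfd2 call with no filter (0.0576). Among prolyl isomerases and KDEL receptors, 0 of 8 tested genes rose and 2 fell (median 0.01). These were Ppib (cyclophilin B, -0.71, adjusted p = 0.00153, edgeR) and Fkbp2 (-0.45, 0.0209), the latter lost in 5 of the 12 fits, at most to 0.0646 without mild-hypo-OPC replicate 1, and with the span trend removed (-0.13, adjusted p = 0.409, edgeR).

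Of the UPR sensors and transcription factors, 1 of 11 tested genes rose and 1 fell (median log2 fold change 0.05). Atf4, the effector of the PERK branch, was 117.1 ± 8.41 CPM in mild-hypo-OPCs and 163.1 ± 14.3 CPM in standard OPCs (SD, n = 6 each), with a log2 fold change of -0.48 (adjusted p = 0.000333, edgeR's quasi-likelihood test). Atf4 spans 2059 bases, and its call was lost when the span trend was removed (-0.10, adjusted p = 0.299, edgeR) and when libraries were scaled by total counts alone (-0.0352, adjusted p = 0.762, edgeR). Ppp1r15b, which directs eIF2alpha dephosphorylation, rose by 0.22 (adjusted p = 0.0498, edgeR), a call lost in 7 of the 12 leave-one-out fits, at most to 0.102 without standard OPC replicate 4. It was also lost with limma-voom (adjusted p = 0.0557) and, in edgeR, with the filterByExpr filter (0.0645) or no filter (0.0660). The sensors Atf6 (0.05) and Eif2ak3 (PERK, 0.22) did not pass the test. The remaining sensor, Ern1 (IRE1), was below the filter, with counts of 14 to 31 in the mild-hypo-OPC group and 2 to 8 in the other group. The stress factor Ddit3 (CHOP) was also below it, on CPM before TMM scaling, with counts of 11 to 41 and 6 to 19.

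In ER-associated degradation, which removes proteins that fail to fold, 3 of 33 tested genes rose and 5 fell (median log2 fold change -0.07). Syvn1 (the HRD1 ligase, 0.33, adjusted p = 0.0304, edgeR), its partner Sel1l (0.31, 0.0149) and Nploc4 (0.25, 0.0401) rose. Selenos (-0.75, adjusted p = 0.000342, edgeR), Selenok (-0.74), Ubxn6 (-0.71), Derl2 (-0.50) and Get4 (-0.47) fell. The calls of Syvn1 and Nploc4 were lost in 5 and 4 of the 12 leave-one-out fits, with the highest adjusted p (edgeR) at 0.0761 without standard OPC replicate 5 and 0.0876 without standard OPC replicate 4. The Nploc4 call also ended with the filterByExpr filter (adjusted p = 0.0503, edgeR) and with the span trend removed (0.18, adjusted p = 0.116, edgeR). Counts thinned to the smallest total ended the calls of Ubxn6 (-0.39, adjusted p = 0.107, edgeR), Derl2 (-0.23, 0.455), Syvn1 (0.36, 0.0514) and Nploc4 (0.31, 0.0804). Selenok was -0.18 in the libraries numbered 1 to 3 (adjusted p = 0.690, edgeR) and -1.27 in those numbered 4 to 6 (3.94e-05).

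Of the ER calcium genes, 1 of 13 rose and 2 fell (median log2 fold change -0.07). Atp2a2, the calcium pump SERCA2, rose (0.26, adjusted p = 0.0260, edgeR), a call lost in 3 of the 12 fits, at most to 0.0593 without standard OPC replicate 5. The Atp2a2 call also ended with the span trend removed (0.19, adjusted p = 0.0508, edgeR). Tmco1 (-0.62), a calcium leak channel, and Sdf4 (-0.32), a calcium-binding protein of the secretory pathway, fell. In the list drawn up for cytosolic and mitochondrial relatives, 2 of 19 tested genes rose and 1 fell (median 0.08). One of the risers, Hspa13 (0.37, adjusted p = 0.00523, edgeR), encodes an HSP70 relative of the microsomal fraction and is not a cytosolic or mitochondrial protein, and its call was lost with counts thinned to the smallest total (0.21, adjusted p = 0.216, edgeR). The other was Hsph1 (0.29, adjusted p = 0.0220, edgeR), lost in 2 of the 12 fits, at most to 0.0525 without standard OPC replicate 3. Hspe1, the mitochondrial co-chaperonin, fell (-0.85, adjusted p = 0.000306, edgeR), and Hspa8 had a log2 fold change of 0.06 without passing the test.

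**Figure D5:**
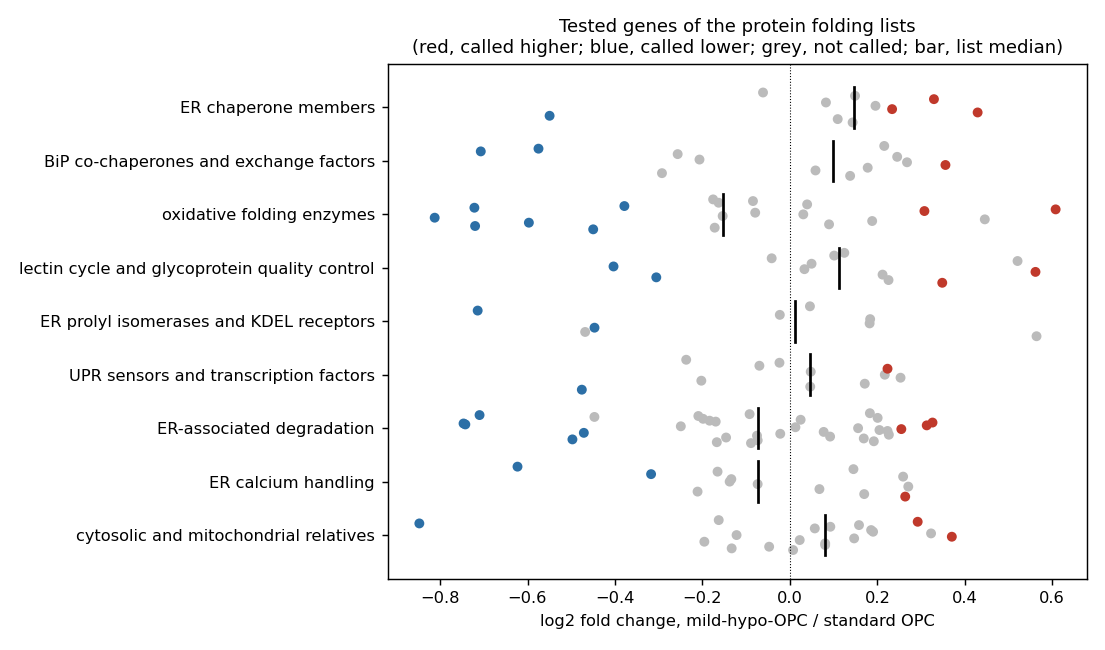
Log2 fold change (mild-hypo-OPC over standard OPC) of each tested gene in the protein folding lists (rows), red for called higher, blue for called lower and grey for not called, with a black bar at each list's median. The oxidative folding enzymes have the lowest median, at -0.15.

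Of the 21 genes with the ERSE match, 14 were tested, 5 of them members. By edgeR's quasi-likelihood test 2 rose (Hsp90b1 and Hnrnpa3, 0.26) and 1 fell (Birc5, -0.51), and their median log2 fold change was 0.07, where 7.00% of all genes tested were called higher and 17.0% lower. The ERSE-II letters, ATTGG and CCACG with 1 base between them, searched on both strands, were in 17 windows (0.0508%). None of the 7 members that had a window held them. The ERSE-II letters were present in Hyou1, Dnajb11, Herpud1 and Nucb1, and none of the 8 tested genes with them was called. The UPR element core TGACGTGG was in 199 windows (0.595%) and in none of the 7 members that had a window. Of 69 tested genes with it, 7 rose and 5 fell (median 0.02), to be read against the same 7.00% and 17.0%.

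From library to library within a group, some members varied together and others oppositely. After each group's mean was removed, Pearson's r over the 12 libraries between pairs of members had a median of 0.09 over 45 pairs, with 27 pairs above 0. The highest pair was Hspa5 and Hsp90b1 (r = 0.73) and the lowest Hsp90b1 and Xbp1 (r = -0.75). With Hspa5, Canx gave r = 0.53, Pdia6 0.28, Ero1a 0.18, Calr 0.09, Pdia4 -0.04, Pdia3 -0.23, Xbp1 -0.37 and Dnajb9 -0.51. The genes closest to Hspa5 among 4057 candidates were Rubcn (r = 0.95), Sf1 (0.95), Pcdh1 (0.94), Pi4ka (0.94) and Arid2 (0.91), and Hsp90b1 ranked 188. These values describe libraries that share depth and composition, and carry no test.

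Markers of cell types were measured beside these results. Their counts are to be read against the 7.00% of all genes tested called higher and the 17.0% called lower. Of 10 tested OPC markers 1 rose (Gpr17, 0.45) and 1 fell (Pcdh15, -0.49) by edgeR, and 6 had a log2 fold change above 0 (median 0.035). Their summed level had a median of 4268 CPM in mild-hypo-OPCs and 4080 CPM in standard OPCs, so the labelled cell type had its markers. The sum was led by Gpr17, the gene called higher, with medians of 1314 and 986.8 CPM. Markers of myelinating oligodendrocytes rose in 5 of 9 tested genes and fell in 0 (among them Cnp 0.28, Myrf 0.38, Mag 0.47 and Cldn11 0.54). Mbp (0.29), Mobp (0.16), Mog (0.15) and Aspa (-0.16) did not pass the test. The sum of the myelinating oligodendrocyte markers, led by Mbp, was 12970 to 14320 CPM in mild-hypo-OPCs and 8828 to 12790 CPM in standard OPCs, without overlap.

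Astrocyte markers rose in 2 of 9 tested genes (Aqp4 and Slc1a3) and fell in 1 (S100b), with sums of 876.9 to 1022 CPM in mild-hypo-OPCs and 839.2 to 932.8 CPM in standard OPCs, led by Gfap. Microglia markers rose in 2 of 6 (Csf1r and C1qb) and fell in 1 (Tyrobp), with sums of 62.9 to 88.1 and 41.4 to 68.7 CPM, led by Csf1r. Neuron markers rose in 1 of 6 (Tubb3), with sums of 274.1 to 305.0 and 181.9 to 233.2 CPM, also without overlap, led by Map2. All 6 tested neuron markers had a log2 fold change above 0 (median 0.38). None of the mesenchymal and endothelial markers passed the filter, and their sums were at most 3.91 CPM in any library. The most abundant row of the table, the ribosomal RNA gene Rn28s, took 5.14% to 7.43% of the total in a mild-hypo-OPC library and 6.87% to 11.5% in a standard OPC library. The part of cell type makeup and of ribosomal RNA in the chaperone results was not tested.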

How the data were processed

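Strand-specific RNA-seq libraries were prepared from OPCs, giving 12 libraries, 6 per group. Per the submitters' processing notes, the tools used were Trimmomatic 0.36, FastQC 0.11.9, STAR 2.7.9a and RSEM 1.3.3 on mRatBN7.2. The deposited values were estimated counts per gene from RSEM, given by the authors as whole numbers and not normalized, and reads shared by near-identical genes were divided by that estimation. A gene was tested where at least 1 library exceeded 10 CPM computed from the plain library total, before TMM scaling, so TMM-scaled values near 10 CPM can fall on either side of this filter. TMM scaling and the quasi-likelihood test of edgeR 4.0.16 (R 4.3.3) were fitted over all genes kept with condition as the only term, with Benjamini-Hochberg adjustment at 0.05. The SE was taken from the fold change and its F statistic. DESeq2 1.42.0 and limma 3.58.1 (voom) were alternatives, among 25 alternatives of which 12 left out 1 library each. The fitting steps were tested on simulated data.

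Depth limits Dnajb9 and Ero1a most, since these had the fewest reads among the members. Within each group, replicate libraries differed by more than counting noise (chi-square per degree of freedom 3.39 to 21.2 between mild-hypo-OPC libraries and 4.12 to 21.4 between standard OPC libraries, 15 pairs each), so no library was counted as a duplicate file of another. This does not show that the libraries came from separate cultures, since repeat preparations can also differ by more than counting noise. CPM is not per length, so where a gene is said to lead a marker sum this refers to its CPM and not to its number of transcripts. Likeness to Hspa5 was Pearson's r of log2 CPM centred within groups among genes with a mean log2 CPM of at least 5, and the 5 highest were named. In each list the called genes were named, at most the 4 with the largest absolute log2 fold change in each direction, and in each cell type list its most abundant gene and the called genes, of which 1 is not reported here. Erp29, Txndc15 and Get4, the list genes named without a call, and the genes named by promoter match fell outside this rule and were chosen after their values were seen. The members and lists were chosen with earlier results of these data known. Promoter windows and gene spans came from RefSeq (GRCr8).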

Additional observations from a re-analysis of the deposited data

Results flagged for a closer look

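Of 20 groups of member values examined (10 genes in each of the groups), 2 held a library far from the other 5 by Dixon's ratio on log2 CPM, and chance alone flags about 1 in 20. Pdia3 was 293.2 CPM in standard OPC replicate 5, above the other standard OPC libraries. Calr was 866.1 CPM in mild-hypo-OPC replicate 6, above the other mild-hypo-OPC libraries.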

How the results depend on the processing

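Depth differed between the groups without overlap, and when the log2 total count was added to the model no gene was called higher by edgeR (217 at an unadjusted p under 0.05; DESeq2 without that term called 795) and 43 were called lower, with 0 members and 0 list genes called in either direction. That fit reversed Hsp90b1 (-0.12), Xbp1 (0.28), Ero1a (-0.13), Dnajc10 (-0.0913), Sdf2l1 (0.12), Prdx4 (0.15), Ganab (-0.0028), Lman2 (0.22), Ppib (0.15), Fkbp2 (0.0291), Syvn1 (-0.11), Sel1l (-0.0243), Nploc4 (-0.0457) Atp2a2 (-0.0269), Txndc15 (0.0777), Erp29 (0.28) and Get4 (0.17), as log2 fold changes. Scaling by library size only called 5515 genes higher and 405 lower, 9 members higher and 0 lower, and 88 list genes higher and 3 lower, and reversed Xbp1 (0.38), Mcfd2 (0.0257), Lman2 (0.13), Sdf4 (0.12) and Txndc15 (0.0603), with the median of all genes at 0.43. Upper-quartile scaling called 1136 genes and 26 list genes higher and gave Xbp1 0.0102. DESeq2 called 5 members higher, and removal of the gene span trend called 5 members and 18 list genes higher and gave Xbp1 0.15. Replicates 1 to 3 alone called 53 genes higher and 343 lower, 0 members higher and 0 lower, 0 list genes higher and 3 lower, and gave Xbp1 0.0334. Replicates 4 to 6 alone called 569 genes higher and 1381 lower, 0 members higher and 1 lower (Dnajb9), and 10 list genes higher and 22 lower. That fit gave Pdia3 -0.0065, and Pdia4 was then not called (adjusted p = 0.0619, edgeR). Both splits fitted fewer libraries than the main fit, and the cause of these and the other changes was not tested. Thinning to the smallest total called 1045 genes lower and 14 list genes lower. Of the 33 called list genes, calls were lost with thinning for Derl2 (-0.23), Erp29 (-0.34), Fkbp2 (-0.42), Hspa13 (0.21), Lman2 (-0.19), Mcfd2 (-0.24), Nploc4 (0.31), Prdx4 (-0.37), Syvn1 (0.36), Tmx4 (0.36) and Ubxn6 (-0.39), and with the span trend removed for Atf4 (-0.10), Atp2a2 (0.19), Erp29 (-0.27), Fkbp2 (-0.13), Nploc4 (0.18), Sdf2l1 (-0.21) and Tmx4 (0.24). Scaling by library size only also ended the calls of Atf4, Derl2, Erp29, Fkbp2, Get4, Gpx8, Ppib, Prdx4, Sdf2, Sdf2l1, Selenok, Tmco1, Txndc12 and Ubxn6, without a change of sign (-0.32 to -0.0129). Leaving out 1 library at a time gave 1 to 4 members called higher and 1 called lower, and 7 to 17 list genes higher and 16 to 22 lower, with 436 to 823 genes higher overall and 1165 to 1664 lower. Of those 33 list genes, 21 kept their call in all 12 of those fits. After group means were removed, same-numbered libraries correlated at -0.28 to 0.30 (2 of 6 pairs over 0.1). Of the 6 mild-hypo-OPC libraries, 1 correlated best with its own number. These few values cannot tell whether same-numbered libraries share a culture, and the main fit used no pairing. A replicate block gave 572 genes higher and 1471 lower, with 3 members higher and 1 lower and 10 list genes higher and 21 lower, and ended the calls of Ppp1r15b (adjusted p = 0.0733, edgeR) and Nploc4 (0.0510).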
